A study of Arabidopsis thaliana with 8 samples.

Results

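The genes described here are carried by the 2 organelle genomes of Arabidopsis, the plastid genome and the mitochondrial genome. A plastid probe set was taken as a member when the array's annotation gave it a single gene and that gene lay on the plastid genome. A mitochondrial one was taken when its single gene had a symbol beginning nad, cox, ccb, matR or orfX. Mitochondrial genes with other symbols were not taken, so the mitochondrial members do not stand for that whole genome. These rules gave 85 genes, of 13350 with a probe set of their own, measured by 92 of the 22810 probe sets on the array. Of these probe sets, 69 stood for 69 plastid genes and 23 stood for 16 mitochondrial genes. The mitochondrial gene nad1 had 7 probe sets and nad5 had 2, so these share a target and are not independent. A further 19 organelle probe sets whose annotation listed several genes were left out, and none was used below.

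The samples were 8 cell cultures of the Arabidopsis accession Ler (stock code NW20), of which the titles name 4 fum and 4 met, and the series is about genes that regulate programmed cell death in plants. Both groups share the same conditions: a culture incubator at 24 °C, sucrose, the auxin NAA, the cytokinin kinetin and Murashige and Skoog medium. Total RNA from each was labelled with biotin and measured on 1 array. The labels do not say what fum and met stand for. They also do not say whether replicates were grown separately, so the p-values below may reflect technical spread alone.

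Plastids and mitochondria keep small genomes that code for core subunits of their electron transport chains and for part of the machinery that expresses them. Most other organelle proteins come from the nucleus. Many plastid genes are transcribed together in long units that are then cut, spliced and trimmed into separate RNAs. Plastid transcription is shared between a bacterial-type RNA polymerase, whose core subunits are encoded in the plastid itself, and a phage-type polymerase from the nucleus, and plant mitochondria use phage-type polymerases alone. Photosynthesis genes are largely read by the bacterial-type enzyme.

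The values are MAS5 signals, linear brightness units computed on each array alone and scaled so that each array had nearly the same trimmed mean, between 99.5 and 99.8. The median signal of an array lay between 33.1 and 41.5. The probe set for 25S ribosomal RNA, a control on the array, read 3901.1, 3529.0, 157.6 and 2806.2 in fum replicates 1 to 4 and 824.0, 1305.0, 4491.2 and 4201.8 in met replicates 1 to 4. It was thus lowest on fum replicate 3, then on met replicates 1 and 2. Actin control probe sets, whose 3′ over 5′ ratio rises when RNA is degraded, gave 12.0 for met replicate 1 and 1.92 to 2.39 elsewhere. The same ratio for the GAPDH control rose far less, at 1.80 on met replicate 1 and 1.04 to 1.42 elsewhere. Class spreads, member spreads, ranges within transcription units and the comparison of fum with met are also given without these 3 arrays, here or in the closing section.

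The organelle members, 69 plastid and 23 mitochondrial of the 22746 probe sets that are not controls, held a small share of the signal. The 19 organelle probe sets that list several genes are not counted in it. Plastid members made up 0.954% ± 0.322 (SD, n = 8 arrays) of the summed signal of an array and mitochondrial members 0.0968% ± 0.0407. The plastid share was 0.928% ± 0.327 in fum and 0.980% ± 0.365 in met (n = 4 each), a difference far inside the spread within either group. Over its members, the plastid genome had a geometric mean signal of 154.98 and the mitochondrial genome 47.81, beside 105.85 over all 13647 probe sets bright enough to be tested. Probe sets bind with different strength, so these levels order the signals of classes and are not molar amounts of RNA.

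Within the plastid signal, genes for the translation machinery and the ATP synthase took the most. The 15 ribosomal protein genes held 24.0% ± 3.98 of the summed plastid signal (SD, n = 8), and the 6 ATP synthase genes held 21.4% ± 4.54. The 15 photosystem II genes followed at 15.5% ± 1.25, then the 7 genes of the ycf and other class at 12.4% ± 3.76, and the 5 photosystem I genes at 9.27% ± 1.81. The cytochrome b6f complex held 7.74% ± 1.02, the NDH complex 4.62% ± 1.69 and the plastid RNA polymerase 4.55% ± 1.01. The Rubisco large subunit, coded by a single gene, held 0.522% ± 0.206. Neighbours in this order, such as ribosome and ATP synthase or NDH and RNA polymerase, lay closer together than their SDs. Few bright genes can carry a share: in the ATP synthase, atpB and atpE read at least 1787 and 1874, beside at most 1058 for atpA.

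Within the summed signal of the mitochondrial members, complex I held 45.0% ± 8.46 (SD, n = 8) through 15 probe sets of 8 genes. Cytochrome c maturation held 34.9% ± 8.95 through 4 genes. The 2 cytochrome c oxidase genes held 17.1% ± 1.59, orfX 2.25% ± 0.408 and matR 0.655% ± 0.435. These shares count probe sets as well as brightness, since complex I has many dim probe sets. Single bright members weigh heavily in them. In complex I, nad4 had means of 477 in fum and 661.5 in met, and the next, nad9, 109.5 and 175.1. In cytochrome c maturation, ccb382 had 791.7 and 808.0, and the next, ccb452, 197.5 and 282.5.

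Per probe set the order was different. The geometric mean signal over 8 arrays was highest for the ycf and other class at 322.96, followed by the plastid ribosome at 240.89, photosystem I at 232.67 and the plastid ATP synthase at 222.34. The middle was formed by cytochrome c oxidase at 169.34, the plastid RNA polymerase at 157.40, photosystem II at 140.91 and Rubisco at 130.06, with cytochrome c maturation at 110.89 and cytochrome b6f at 106.11 just under them. The dimmest were orfX at 59.23, NDH at 46.03, mitochondrial complex I at 34.71 and matR at 12.94. Of the 91 pairs that these 14 classes form, 63 kept the same order on all 8 arrays. Others could not be ordered: photosystem I exceeded the ATP synthase on 5 of 8 arrays, with a mean log2 difference of 0.07 ± 0.30 (SD), and NDH exceeded mitochondrial complex I on 5 of 8, with 0.41 ± 0.75.

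**Figure D1:**
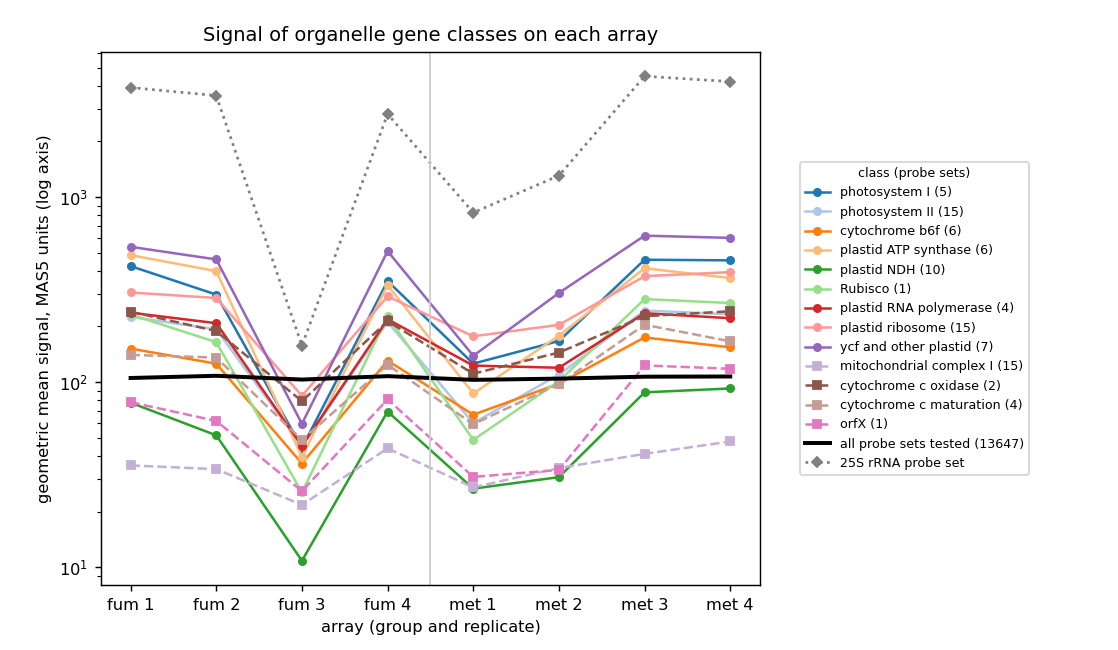
Geometric mean MAS5 signal (log axis) of each functional class except matR on each of the 8 arrays, 4 fum and 4 met, with the 25S probe set and the mean of all tested probe sets for comparison. Each class shown is lowest on fum replicate 3, while the mean of all tested probe sets stays between 102.97 and 108.32.

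The organelle genes varied between arrays far more than most of the array did. The geometric mean of the plastid members was 244.40, 201.05, 41.59 and 219.03 in fum replicates 1 to 4, and 84.06, 123.80, 270.10 and 264.48 in met replicates 1 to 4. The 3 lowest arrays were the same as for the 25S signal and came in the same order. The mitochondrial members moved less, at 51.08, 48.88, 26.96 and 61.44 in fum and 31.11, 46.23, 66.03 and 69.46 in met. In total RNA from whole cultures, fewer cells or organelles of a kind and less RNA in each cannot be told apart. What part the quality or labelling of the arrays had in these values was not tested.

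Across the 8 arrays the log2 SD of a tested member had a median of 0.83 over the 77 members that passed the filter on low signal, beside 0.24 over all 13647 tested probe sets. An SD above 1 was found for 32 of 60 tested plastid members, for 1 of 17 tested mitochondrial members and for 115 of all tested probe sets, which is 0.843% of them. Members made up 31 of the 100 probe sets with the largest SD, and atpH had the largest of all. These figures rest on the 3 arrays lowest in 25S. Over the other 5 arrays the median SD of the tested members was 0.29, beside 0.20 over all tested probe sets, 0 of the 77 had an SD above 1 and 0 were among the 100 largest.

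The 3 arrays lowest in 25S were also the 3 lowest for 46 of the 69 plastid members and 12 of the 23 mitochondrial members, beside 6.14% of all tested probe sets. The lowest array was fum replicate 3 for 50 of 69 plastid and 16 of 23 mitochondrial members, beside 2371 of all 13647 tested probe sets. The highest was met replicate 3 or 4 for 41 plastid and 19 mitochondrial members. Over all tested probe sets it was met replicate 3 for 1443 and met replicate 4 for 1407.

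**Figure D2:**
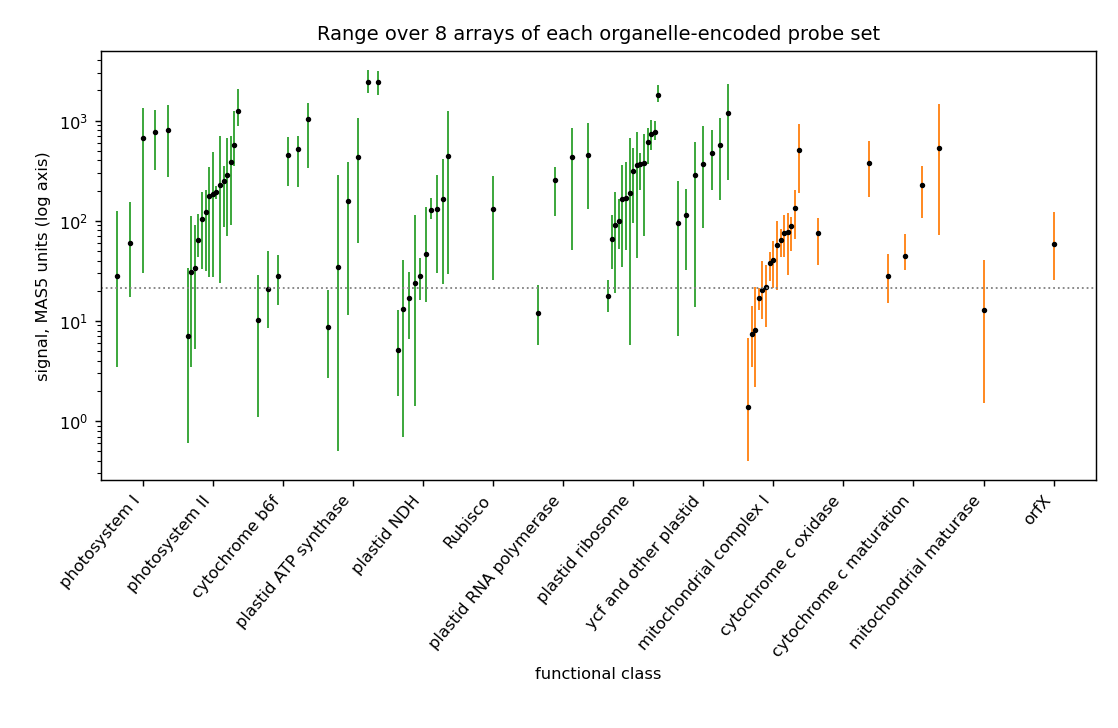
Range of signal over the 8 arrays (bar, log axis) and geometric mean (point) of each organelle member, grouped by functional class, with the filter signal of 21.1 as a dotted line and plastid members in green, mitochondrial in orange. Members of 1 class differ widely in range: within the ATP synthase, atpB spans 1786.6 to 3094.7 and atpH 0.5 to 283.9.

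Photosystem I, which passes electrons to ferredoxin, was represented by all 5 of its plastid genes, and its class mean had a log2 SD of 1.19 over 8 arrays. The brightest was psaB, a reaction centre core protein, with 1414.9, 1032.7, 275.3 and 1016.8 in fum and 469.3, 584.7, 1212.5 and 1208.4 in met. The other core protein, psaA, was dimmer at 154.7, 80.5, 17.8 and 120.7 in fum and 17.4, 35.3, 115.8 and 83.6 in met. Both were low on fum replicate 3 and met replicates 1 and 2, and the groups overlapped. The small subunit psaI behaved differently, with 963.5, 1047.1, 30.3 and 852.0 in fum and 905.1, 948.1, 1346.7 and 1332.0 in met. It was low on fum replicate 3 alone, where it was 44.4-fold below its highest array. Its log2 difference between fum and met of -1.47 (SE 0.92, limma adjusted p = 0.444) shrank to -0.23 without that array. psaC, which carries iron-sulfur clusters, ranged from 3.5 to 124.7, and psaJ, a small subunit, from 324.2 to 1269.8.

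Photosystem II, the water-splitting complex, had 15 members, with a class log2 SD of 0.96. Its brightest member was the small subunit psbM, at 1391.4, 1521.5, 904.1 and 1068.2 in fum and 989.6, 875.8, 2073.9 and 1695.2 in met, where the lowest array was met replicate 2. psbA, the D1 protein that is replaced constantly in the light, read 623.5, 393.8, 23.7 and 373.1 in fum and 83.6, 81.2, 680.5 and 702.6 in met, a 29.6-fold range. The other core proteins were psbD (D2) with a highest signal of 192.8, psbB (CP47) at 3.5 to 110.4 and psbC (CP43) at 90.7 to 698.4. psbD was lowest on met replicate 1, while psbB and psbC were lowest on fum replicate 3.

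The steadiest plastid member was also in photosystem II. psbJ, a small subunit, read 164.9, 188.4, 219.3 and 222.1 in fum and 211.4, 194.7, 189.0 and 172.7 in met, and on fum replicate 3 it was close to its highest value. Its log2 SD was 0.16. psbE, an apoprotein of cytochrome b559 from the same transcription unit, read 165.2, 134.6, 115.1 and 202.4 in fum and 31.7, 156.1, 164.9 and 117.7 in met. It was low on met replicate 1 only, so that its log2 difference of 0.61 (SE 0.44, limma adjusted p = 0.512), the highest of the tested members, fell to 0.06 without met replicate 1. psbF, the partner of psbE, was likewise lowest on met replicate 1, at 86.2 beside 231.6 to 354.2 elsewhere.

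The cytochrome b6f complex links the photosystems, and 4 of its 6 genes passed the filter. petB, cytochrome b6, was the brightest at 1458.9, 1372.6, 339.8 and 1493.4 in fum and 451.9, 1273.0, 1450.0 and 1504.8 in met. It was low on fum replicate 3 and met replicate 1 and close to its top on met replicate 2. petA, cytochrome f, ranged from 218.2 to 705.4, and petL, a small subunit, from 219.8 to 687.9, each lowest on fum replicate 3.

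The plastid ATP synthase held the brightest member and the widest-ranging one. atpB, the catalytic beta subunit, was the brightest organelle member at 2669.5, 2529.0, 2129.9 and 2327.4 in fum and 1786.6, 2370.2, 3094.7 and 2936.0 in met, within a 1.73-fold range. atpE, the epsilon subunit transcribed with it, lay between 1873.7 and 3160.8. The lowest array of each was a met array, replicate 1 for atpB and replicate 2 for atpE. atpH, which forms the membrane ring of c subunits, read 283.9, 121.4, 0.5 and 191.7 in fum and 1.8, 31.5, 118.7 and 92.1 in met. On fum replicate 3 and met replicate 1 it was close to the bottom of the signal scale, where MAS5 values are noisy, so its range is poorly measured. Its log2 difference of 0.60 (SE 1.88, limma adjusted p = 0.907) was 2.74 without fum replicate 3 and -0.72 without met replicate 1. atpA, the alpha subunit, ranged from 59.9 to 1058.2, and atpF, of the membrane part, from 11.4 to 381.7.

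The plastid NDH complex, which feeds electrons back into the chain around photosystem I, was dim, and 7 of its 10 genes passed the filter. Its brightest member was ndhI at 1245.5, 1122.1, 29.6 and 1051.4 in fum and 65.9, 378.8, 1198.3 and 1134.9 in met. It was above 1000 on 5 arrays, and the low 3 were fum replicate 3 and met replicates 1 and 2. ndhJ read 46.4, 30.1, 1.4 and 34.3 in fum and 13.8, 9.1, 109.6 and 114.6 in met, with a log2 difference of -1.14 (SE 1.13, limma adjusted p = 0.652) that was 0.04 without fum replicate 3. ndhC, from the same unit as ndhJ, read 108.3, 117.0, 151.1 and 156.6 in fum and 166.9, 104.5, 117.3 and 109.8 in met. Its highest array was met replicate 1, among the lowest for most plastid members.

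The single gene for the Rubisco large subunit, rbcL, the carbon-fixing enzyme, read 232.2, 164.5, 25.4 and 226.9 in fum and 48.8, 101.3, 281.1 and 267.7 in met. Its order of arrays was close to that of 25S, with fum replicate 3 lowest and met replicate 3 highest. Its log2 difference was -0.19 (SE 0.72, limma adjusted p = 0.926).

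Among genes of the plastid's own expression machinery, the polymerase subunit rpoC1 read 706.4, 651.4, 130.1 and 592.8 in fum and 237.8, 287.5, 938.4 and 831.4 in met. Of the other polymerase subunits, rpoA ranged 3.12-fold with its highest value on met replicate 1, rpoC2 ranged 16.8-fold and rpoB was too dim to be tested. The ribosomal protein gene rps4 was bright and steady at 1642.8, 1799.5, 1641.7 and 1638.4 in fum and 1952.4, 1543.8, 2281.5 and 2096.3 in met, a 1.48-fold range. The ribosomal class was divided in its spread. The log2 SD was below 0.5 for 7 of 15 members, rps3, rps4, rps14, rps18, rps19, rpl22 and rpl32, and above 1 for 6 others. The widest was rpl14, at 428.6, 238.8, 5.7 and 331.4 in fum and 108.4, 166.1, 668.0 and 656.1 in met. Its log2 difference of -1.34 (SE 1.19, limma adjusted p = 0.605) was 0.12 without fum replicate 3.

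The ycf and other class gathers plastid genes outside these complexes. clpP, a subunit of the Clp protease, was its brightest member at 2192.7, 2213.8, 254.7 and 1927.3 in fum and 379.2, 991.1, 2069.1 and 2330.6 in met, low on the same 3 arrays. accD, a subunit of the acetyl-CoA carboxylase that starts fatty acid synthesis, ranged from 13.9 on fum replicate 3 to 606.4. ycf3, a photosystem I assembly factor, ranged from 7.0 to 246.4. matK, the plastid splicing factor, ranged 6.48-fold, and ccsA, for cytochrome c synthesis, 3.95-fold.

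Genes known to be transcribed together often differed in their range over the 8 arrays. In 14 such units, the highest signal was set against the lowest, with signals under the filter signal of 21.1 raised to it, which makes the ratio of a gene that reached below it a lower bound. In the psbE-psbF-psbL-psbJ unit the ratio was 1.35 for psbJ and 6.38 for psbE. In the ndhC-ndhK-ndhJ unit it was 1.60 for ndhC and at least 5.42 for ndhJ, and in the ribosomal cluster it was 1.54 for rps3 and at least 31.6 for rpl14. The unit of psaI, ycf4, cemA and petA ran from 3.23 for petA to 44.4 for psaI, without reaching the filter signal. Other units were more even, with ratios of 1.73 and 1.69 for atpB and atpE, 3.11 to 5.50 for psaJ, rpl33 and rps18, 3.53 to 7.70 for psbD, psbC and psbZ, and 9.49 and 17.5 for psbI and psbK.

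The widest ranges came from the 3 arrays lowest in 25S. On the other 5 arrays the ratio was 1.58 for psaI and 1.38 for petA, 1.72 for psbE and 1.35 for psbJ, and 2.80 for rpl14 and 1.51 for rps3. Some genes still differed from others of their unit. ndhJ kept a ratio of 3.81 beside 1.45 for ndhC, and psbL 2.63 beside 1.29 for psbF. The ratio was 2.88 for psbZ beside 1.45 for psbC, and 3.38 for psbB beside 1.10 for petB. It was also 3.60 for psaC, 3.01 for ndhE and 3.08 for atpH. rpoB, rps14, atpI, ndhG, ndhH and petG were under the filter signal on several arrays, and no range is compared for them. Whether probe position within a gene plays a part was not tested, since probe sequences were not used here.

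**Figure D3:**
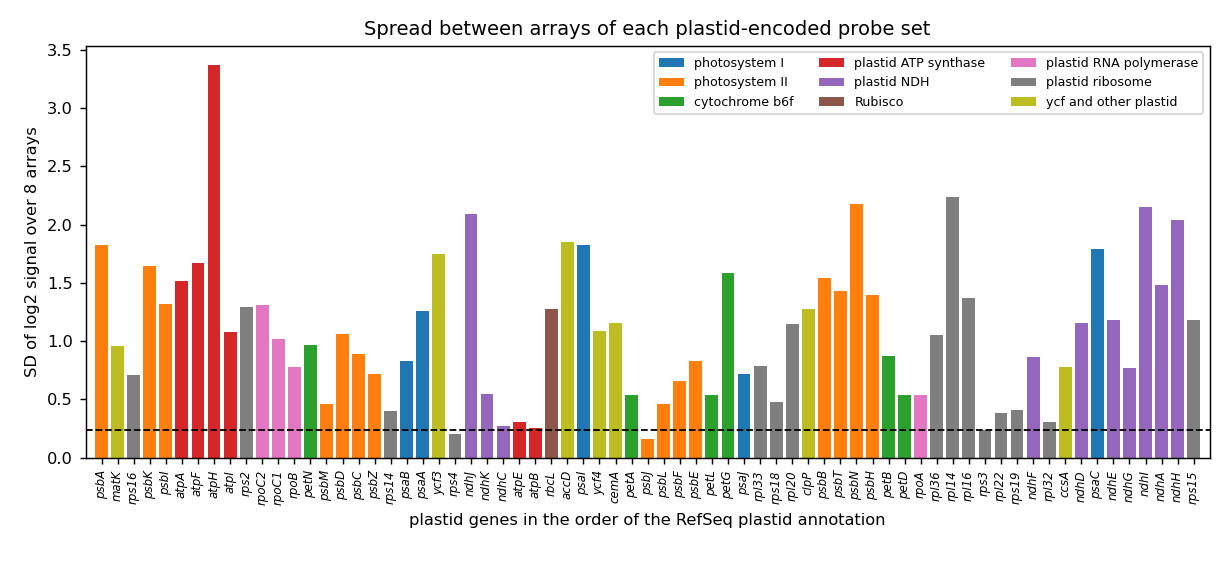
SD of log2 signal over the 8 arrays (bar height) for the 69 plastid members, in their order along the plastid genome and coloured by class, with the median SD of all tested probe sets, 0.24, as a dashed line. Genes of low and high SD stand side by side in several places, and atpH has the highest SD at 3.37.

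The mitochondrial members were dimmer, and the tested ones were steadier over all 8 arrays. Their median log2 SD was 0.56, beside 1.06 for the tested plastid members. This contrast rested on fum replicate 3 and met replicates 1 and 2. Over the other 5 arrays the medians were close, at 0.28 for mitochondrial and 0.29 for plastid members. Complex I, which takes electrons from NADH, had a class log2 SD of 0.37 over 8 arrays, the smallest of all classes. Its brightest member was nad4 at 634.7, 472.7, 191.3 and 609.3 in fum and 498.1, 328.5, 926.9 and 892.6 in met. The gene nad1, which is assembled by trans-splicing of separate transcripts, had 7 probe sets whose geometric means ran from 8.10 to 76.25, and 4 of them passed the filter. One of them, the steadiest tested mitochondrial member with a log2 SD of 0.32, read 77.0, 83.3, 43.1 and 73.7 in fum and 50.6, 67.2, 69.3 and 62.5 in met. The 2 probe sets of nad5 were both lowest on fum replicate 3, at 28.9 and 20.4.

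cox1, the core subunit of cytochrome c oxidase, read 547.0, 421.7, 172.7 and 467.2 in fum and 253.8, 253.9, 580.7 and 620.6 in met, and cox2 ranged from 36.1 to 105.6. Both were lowest on fum replicate 3. Of the cytochrome c maturation genes, ccb382 (ccmFN1), part of the haem lyase, was the only tested mitochondrial member with a log2 SD above 1, at 1.70. It read 1190.2, 975.0, 108.6 and 893.0 in fum and 72.4, 380.6, 1475.8 and 1303.1 in met, with its lowest value on met replicate 1. ccb203 (ccmFN2), ccb206 (ccmB) and ccb452 (ccmFC) ranged between 2.25-fold and 3.29-fold. orfX (mttB), which resembles a bacterial protein translocase, read 78.0, 61.8, 25.8 and 80.8 in fum and 30.8, 33.6, 123.2 and 118.2 in met. matR, a splicing factor, was below the filter at 6.1, 10.4, 7.6 and 35.3 in fum and 1.5, 27.4, 40.9 and 27.5 in met, and it was not tested.

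Between fum and met, no organelle member passed the test. With limma on log2 signals and Benjamini-Hochberg adjustment over all 13647 tested probe sets, 0 of the 77 tested members had an adjusted p under 0.05, where 2.57% of all tested probe sets did, 1.47% higher and 1.11% lower in fum. At an unadjusted p under 0.05 the count was 3 of 77, all lower in fum, beside 17.9% of all tested probe sets. For none of the 92 members did the values of the 2 groups separate without overlap, beside 12.4% of all tested probe sets. The interval that the data allow is wide for plastid genes, since their SD within a group often exceeded 1 on the log2 scale, so a difference was not detectable rather than shown to be absent.

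The smallest p among the members belonged to nad9, a complex I subunit of the matrix arm. It read 124.3, 103.9, 66.3 and 143.5 in fum and 141.3, 167.0, 200.5 and 191.7 in met. The groups overlapped through a single pair of values, 143.5 and 141.3. The log2 difference was -0.72 (SE 0.22), with an unadjusted limma p of 0.00633 and an adjusted p of 0.109. The others were rps3, with means of 701 ± 59.5 for fum and 871 ± 136 for met (SD, n = 4 each, log2 difference -0.30, limma adjusted p = 0.218), and 1 nad1 probe set, at 18.6 ± 10.4 and 29.8 ± 4.78 (log2 difference -0.86, limma adjusted p = 0.279).

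The direction of the small differences depended on single arrays and on the fit. Of the 77 tested members, 57 had a lower mean in fum, with a median log2 difference of -0.19. Without fum replicate 3, 54 were higher in fum and the median was 0.27. Without met replicate 3 it was 44 members with a median of 0.04, and without met replicate 4 it was 40 with a median of 0.02. With the 25S signal as a covariate, a setting chosen after the data were seen, 40 members were higher and 37 lower. The median was then 0.009. In that fit 8 members were higher and 12 lower at an unadjusted limma p under 0.05, beside 1410 and 1388 of all 13647 tested probe sets. By class the log2 difference of the means lay between -0.36 for matR and 0.04 for photosystem II, with photosystem I at -0.29 and the plastid ribosome at -0.33. With single arrays left out, photosystem I ran from -0.64 to 0.46, the ribosome from -0.53 to 0.12 and matR from -1.46 to 0.13, and the median over members in place of the mean gave -1.04 for photosystem I. No class difference kept its sign under every omission, and no class was tested. For all plastid members it was -0.18, beside SDs of 1.21 within fum and 0.83 within met, and it was 0.42 without fum replicate 3. For all mitochondrial members it was -0.17 and without that array 0.08.

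**Figure D4:**
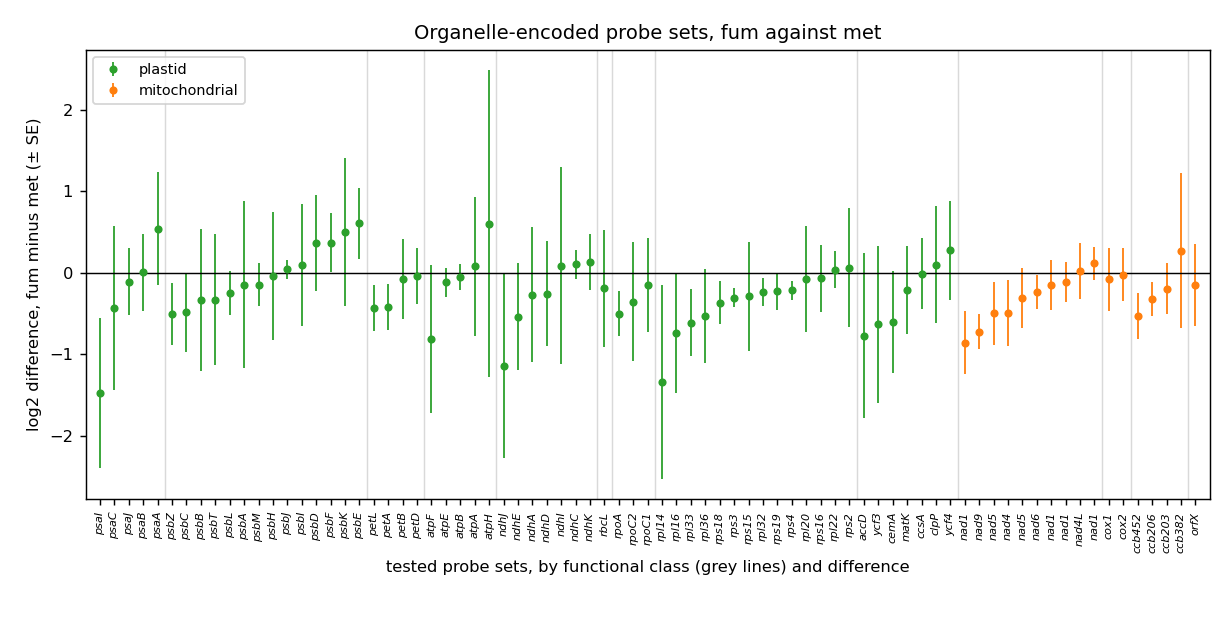
Difference in mean log2 signal, fum minus met (point), with its SE (bar), for the 77 tested members over all 8 arrays, ordered by class and by size. Most points lie below 0 (57 of 77), the plastid members mostly have long bars, and no member passes the test.

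With the 3 arrays lowest in 25S omitted, a choice made after the data were seen, fum replicates 1, 2 and 4 were compared with met replicates 3 and 4. Of the 77 tested members 21 were lower in fum at a limma adjusted p under 0.05 and 0 were higher, beside 1.80% of all tested probe sets lower and 4.21% in either direction. They were 17 of the 60 plastid and 4 of the 17 mitochondrial members: 6 of 14 for the ribosome, 3 of 7 for NDH, 2 of 5 for photosystem I, 2 of 14 for photosystem II and 0 of 5 for the ATP synthase. psbZ, a small photosystem II subunit, read 555.7, 430.1 and 570.2 in these fum arrays and 1236.7 and 1200.7 in these met arrays, a log2 difference of -1.24 (adjusted p = 0.00103). The omitted met replicates 1 and 2 read 409.5 and 350.2, below all 3 of these fum arrays. ndhE, an NDH subunit, likewise read 45.8, 56.1 and 58.4 against 133.6 and 137.7, and 32.1 and 17.4 on the omitted met arrays. The 25S signal still differed between these 5 arrays, at 2806.2 to 3901.1 in fum and 4201.8 and 4491.2 in met, and its part in these calls was not tested.

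Nuclear genes whose products work with these organelle genes varied less between arrays. Of 71 genes on lists of light harvesting and photosystems, Rubisco, respiration, organelle transcription and dividing cells, 13 had a probe set of their own, and 0 of the 13 passed the limma test (1 at an unadjusted p under 0.05), where 2.57% and 17.9% of all tested probe sets did, so these counts show nothing particular to the list. That 1 was RCA, Rubisco activase, with a log2 difference of -0.29 (unadjusted p = 0.0139, limma adjusted p = 0.155), and 12 of the 13 had a lower mean in fum. Their log2 SD over the 8 arrays was between 0.12 and 0.23, apart from 0.50 for AT5G15700, an RNA polymerase of both organelles. That gene read 125.2, 109.7, 84.5 and 153.6 in fum and 50.3, 82.7, 100.6 and 126.1 in met (log2 difference 0.44, limma adjusted p = 0.424). LHCB4.1, a nuclear light-harvesting protein of photosystem II, had a mean of 128.9 in fum and 143.9 in met. AUR1, a kinase of dividing cells, was the only gene of the dividing cell list with a probe set of its own. It was measured at 111 ± 14.4 for fum and 122 ± 7.03 for met (SD, n = 4 each). All samples were cell cultures, so this value cannot check the culture label.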

How the data were processed

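The authors deposited 1 MAS5 signal value per probe set and array for 8 arrays, and MAS5 is named, with no version, per the submitters' processing notes. MAS5 works on each array alone, and its low signals are noisy. Genes were named through the supplied annotation and the RefSeq gene table, used for names and gene order only. Signals listed at 0 (93 values) were set to 0.1 and log2 was taken. Probe sets whose mean log2 signal was at or above the 40th percentile (a signal of 21.1) were tested: 13647, with 77 of the 92 members. The test was limma (version 3.58.1, R 4.3.3) with Benjamini-Hochberg adjustment, and it was tested on simulated data first. Class levels are means of log2 signal over members, with no test. Members and lists were chosen with earlier results of these data known. Genes given in full are the brightest of each class, the 3 highest and 3 lowest log2 differences among tested members, and the largest and smallest SD of each genome. psbA, psbZ, nad9, ndhC, ndhE and others given only by range were chosen after their values were seen. The number of arrays limits the precision. Alternatives are given in the closing section.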

Additional observations from a re-analysis of the deposited data

Results flagged for a closer look

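Within each group of 4 arrays, a value was picked out when its gap to the nearest other value was large beside the range of the group, by Dixon's test at the 95% level. Chance picks out about 1 in 20 groups. Of 216 groups examined, 51 had such a value, and 45 of these values lay on fum replicate 3. Each is a sample far from the other 3 of its group.

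On fum replicate 3 the 25S probe set read 157.6, and the geometric means of photosystem I (44.2), photosystem II (45.1), cytochrome b6f (36.4), the plastid ATP synthase (39.5), the plastid RNA polymerase (45.3), the plastid ribosome (84.5), the ycf and other class (59.6) and cytochrome c maturation (48.8) stood below the other fum arrays. So did those of all plastid members (41.6) and all organelle members (37.3). The part of the 25S signal, or of the array's quality, in these values was not tested.

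Of the photosystem genes, psaC (3.5), psaI (30.3), psbA (23.7), psbC (90.7), psbD (33.6), psbH (27.3), psbI (80.7), psbK (37.5) and psbN (0.6) were far below the other fum arrays on fum replicate 3. The same held for petB (339.8), petG (1.1) and petL (219.8) of cytochrome b6f, for atpF (11.4) and atpH (0.5), for ndhA (23.6), ndhI (29.6) and ndhJ (1.4), and for rbcL (25.4). Among expression genes it held for rpoC1 (130.1), rpoC2 (50.5), rpl14 (5.7), rpl16 (42.9), rpl20 (51.0), rpl36 (34.2) and rps2 (70.7). It also held for accD (13.9), ccsA (203.4), cemA (85.5), clpP (254.7), matK (162.7), ycf3 (7.0) and ycf4 (38.2), and for the mitochondrial ccb382 (108.6) and a nad5 probe set (28.9). The values below 21.1 lie under the filter signal and are poorly measured.

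The other fum value was high, rps4 at 1799.5 on fum replicate 2, beside 1638.4 to 1642.8 on the other 3 arrays. In met, petB (451.9), accD (173.9) and matR (1.5) were low on replicate 1, and psbC was high on replicate 2 at 698.4. The 3′ to 5′ actin ratio was 12.0 on met replicate 1, beside 2.08 to 2.32 on the other met arrays.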

How the results depend on the processing

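No member was higher in fum at a limma adjusted p under 0.05 under any of the 20 alternatives run. The count lower in fum, 0 of 77, was 1 with array weights (nad9, adjusted p = 0.0366), 2 with the 25S signal as a covariate (nad9 and rpl14) and 21 with fum replicate 3 and met replicates 1 and 2 omitted, and the last 2 settings were chosen after the data were seen. The counts under the other alternatives were 0, as were those for nuclear genes under all of them. Same-numbered fum and met arrays did not deviate together (correlations -0.17, -0.30, -0.47 and 0.14). The arrays lowest in 25S did: fum replicate 3 had 0.34 and 0.37 with met replicates 1 and 2, and -0.44 with met replicate 4. Such a pattern can hide a pairing, so this check cannot show whether arrays of the same number share a batch. The labels do not say, and the numbers are used here as names. With the replicate number as a block 0 members passed (smallest adjusted p 0.203), and 65 probe sets of all tested were higher and 50 lower, beside 200 and 151 without it. Over all alternatives those counts ran from 1 to 738 higher and from 0 to 585 lower, lowest with arrays centred on the plastid members and highest with array weights.

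With the 3 arrays omitted, the log2 SD of every class was smaller, at 1.20 beside 1.64 for matR, and at 0.27 for photosystem I, 0.13 for photosystem II, 0.19 for cytochrome b6f, 0.20 for the plastid ATP synthase, 0.34 for NDH, 0.30 for Rubisco, 0.079 for the plastid RNA polymerase, 0.22 for the plastid ribosome and 0.17 for the ycf and other class. The mitochondrial classes had 0.21 for complex I, 0.15 for cytochrome c oxidase, 0.28 for cytochrome c maturation and 0.42 for orfX, and all plastid members had 0.18 and all mitochondrial members 0.22. Adding 16 to each signal gave 0.47 for cytochrome b6f, 0.80 for the ATP synthase, 0.70 for NDH and 0.64 for matR. The median over members in place of the mean gave 1.14 for the ribosome, and a filter at the 60th percentile gave 1.09 for cytochrome c maturation and no value for matR. Leaving out single arrays gave 0.74 to 1.27 for photosystem I, 0.47 to 0.82 for cytochrome b6f, 0.44 to 0.88 for the RNA polymerase, 0.42 to 0.78 for the ribosome, 0.77 to 1.31 for the ycf and other class and 0.64 to 1.03 for all plastid members, lowest in each case without fum replicate 3. For these values the cause of the change was not tested. Members under a signal of 21.1 have poorly measured values, and the number of arrays limits every comparison.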
